A study of Mus musculus with 2 samples.

Results

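The genes described are 40 mouse genes of the lysosome: hydrolases that digest macromolecules, luminal cofactors, proteins of the limiting membrane, subunits of the vacuolar proton pump (V-ATPase), and the MiT transcription factors that act on such genes. They were chosen by name, for their known role in the lysosome, and with earlier results of these data known. All 40 were found among the 55536 genes of the deposited tables. The libraries were polyA-plus RNA-seq of primary macrophages grown from bone marrow of C57BL/6J mice. Both came from the same condition, which the free-text labels give as 12 h with Lipid A at 100 ng/ml, a washout of 12 h, and 300 min with Lipid A at 100 ng/ml again. Lipid A is the part of bacterial lipopolysaccharide that Toll-like receptor 4 senses. Elsewhere the labels name the agent lipoprotein A, and both libraries carry the same donor identifier, so whether they came from separate animals is not shown. Sex and age were not collected. With 1 group and 2 biological replicates, and no untreated or singly treated library among the samples analysed here, levels, proportions and the distance between the libraries can be given, and no effect of the treatment can.

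The lysosome is an acidic compartment. Its pH is set by the V-ATPase, in which the V1 sector hydrolyses ATP in the cytosol and turns a rotor that drives protons through the V0 sector in the membrane. The soluble hydrolases work at that pH, several of them only with the help of small non-enzymatic cofactors such as saposins, and heavily glycosylated proteins such as LAMP-1 and LAMP-2 line the membrane and resist digestion. Many lysosomal genes carry an E-box of the CLEAR type in their promoters, a palindrome to which TFEB, TFE3 and MITF bind. In macrophages the compartment digests phagocytosed material and takes part in antigen processing.

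The core of that E-box, CACGTG, was searched on both strands in the RefSeq promoter windows of GRCm38.p6, which run from 250 bases before to 50 after each annotated start. The palindrome reads the same on both strands. Windows were given for 35 of the 40 genes, not for Atp6v1h, Atp6v1b2, Atp6v0d2, Npc1 and Asah1. The core was found in 10 of those 35 genes (28.6%), namely Lamp1, Mcoln1, Gla, Glb1, Gaa, Lgmn, Naglu, Atp6v0b, Atp6v0d1 and Atp6v1a. The same windows held it in 8.09% of 27025 genes, and in 13.0% of the 4908 genes that reached 10 TPM (a transcript level scaled for length and library size) in both libraries. The stretches below are shown because they hold 10 of the 16 matches, with several copies in Lamp1, Mcoln1 and Atp6v0b and a longer palindrome in Mcoln1, Atp6v0d1 and Atp6v1a. Each reads 5′ to 3′ on the strand of the gene, with the core in capitals.
Lamp1, chr8:13159061-13159160, plus strand: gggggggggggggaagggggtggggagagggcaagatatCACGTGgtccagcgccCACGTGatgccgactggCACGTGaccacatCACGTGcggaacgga
Mcoln1, chr8:3500409-3500486, plus strand: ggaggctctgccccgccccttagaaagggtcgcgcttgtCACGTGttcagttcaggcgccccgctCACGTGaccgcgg
Atp6v0b, chr4:117887330-117887429, minus strand: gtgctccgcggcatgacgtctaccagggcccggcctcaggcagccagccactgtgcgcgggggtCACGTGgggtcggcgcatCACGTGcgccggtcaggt
Atp6v0d1, chr8:105566045-105566144, minus strand: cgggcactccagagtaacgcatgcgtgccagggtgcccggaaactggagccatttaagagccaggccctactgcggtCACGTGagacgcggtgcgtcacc
Atp6v1a, chr16:44139350-44139429, minus strand: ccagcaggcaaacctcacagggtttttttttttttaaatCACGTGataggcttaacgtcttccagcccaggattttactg

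Lamp1 held 4 copies of the core, the most of any of these genes, with their first bases 61, 45, 28 and 15 bases before the RefSeq start. In all, 12 of the 16 matches began within the 100 bases before a start. The palindrome of 8 bases, TCACGTGA, was found in 4 of the 35 genes (11.4%), which were Atp6v0d1, Atp6v1a, Gla and Mcoln1, against 1.12% of all genes with a window and 2.75% of those at 10 TPM or more. Both matches of Gla were of this form. The palindrome of 10 bases, GTCACGTGAC, was in 0 of the 35 windows, in 0.370% of all genes and in 0.978% of those at 10 TPM or more. These motifs are nested, so each longer match is also a match of the core. The windows were 56.6% G and C in the lysosomal genes, 53.8% in all genes and 60.6% in genes at 10 TPM or more, and the part of composition in these shares was not tested. The last 30 bases of the Mcoln1 stretch lie in a GENCODE exon that begins before the RefSeq start. The Lgmn match lies downstream of the GENCODE start of the leading transcript Lgmn-201, beyond its first exon. For Naglu and Atp6v1a the match lies after the GENCODE start of the gene. That of Atp6v1a lies before the start of its leading transcript Atp6v1a-202. The median level over libraries was 140 TPM in the 10 genes with the core and 167 TPM in the 25 without it. A link between the core and the level was not tested.

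**Figure D1:**
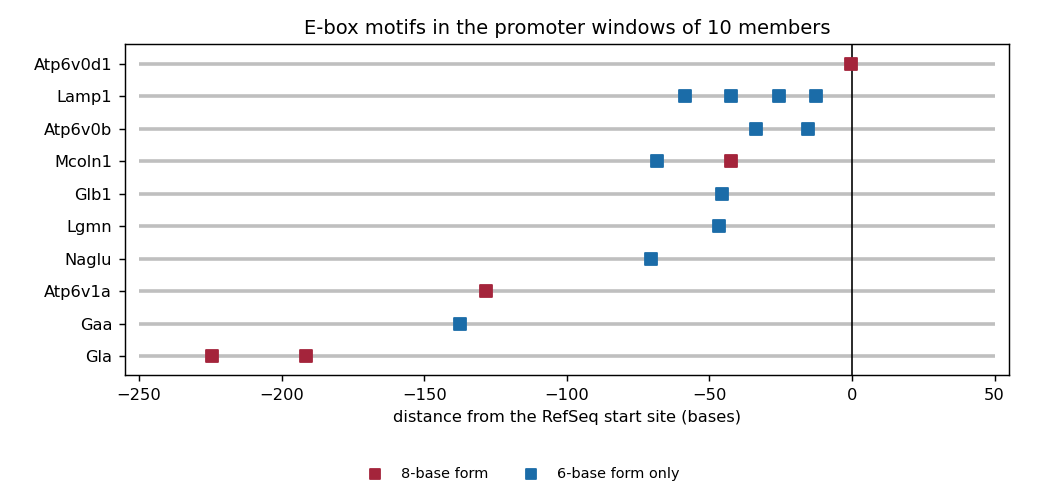
Positions of the CACGTG core in the promoter windows of the 10 lysosomal genes that hold it, with the distance from the RefSeq start in bases on the x axis. Squares are matches, red where the match is part of the palindrome of 8 bases, and 12 of the 16 matches fall in the 100 bases before the start.

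A gene's level is given as the gene TPM the authors deposited, and the spread is the SD of the 2 libraries. Summed over the 40 genes, the levels made up 2.22% of all TPM in replicate 1 and 2.32% in replicate 2. In both libraries 38 of the 40 genes stood at 10 TPM or more, a level reached by 27.3% of the 22028 protein-coding genes. The line of 100 TPM was passed by 26 of them against 5.42% of protein-coding genes, and that of 1000 TPM by 5 against 0.486%. The median of the 40 genes was 143 TPM, and 20 of them were among the 1000 highest genes of both libraries. Levels spanned a wide range within the group: the highest gene exceeded the lowest by 914-fold in replicate 1 and by 889-fold in replicate 2. The order of the genes was nearly the same in both libraries, with a Spearman correlation of 0.994 across the 40 genes, which are not independent replicates.

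**Figure D2:**
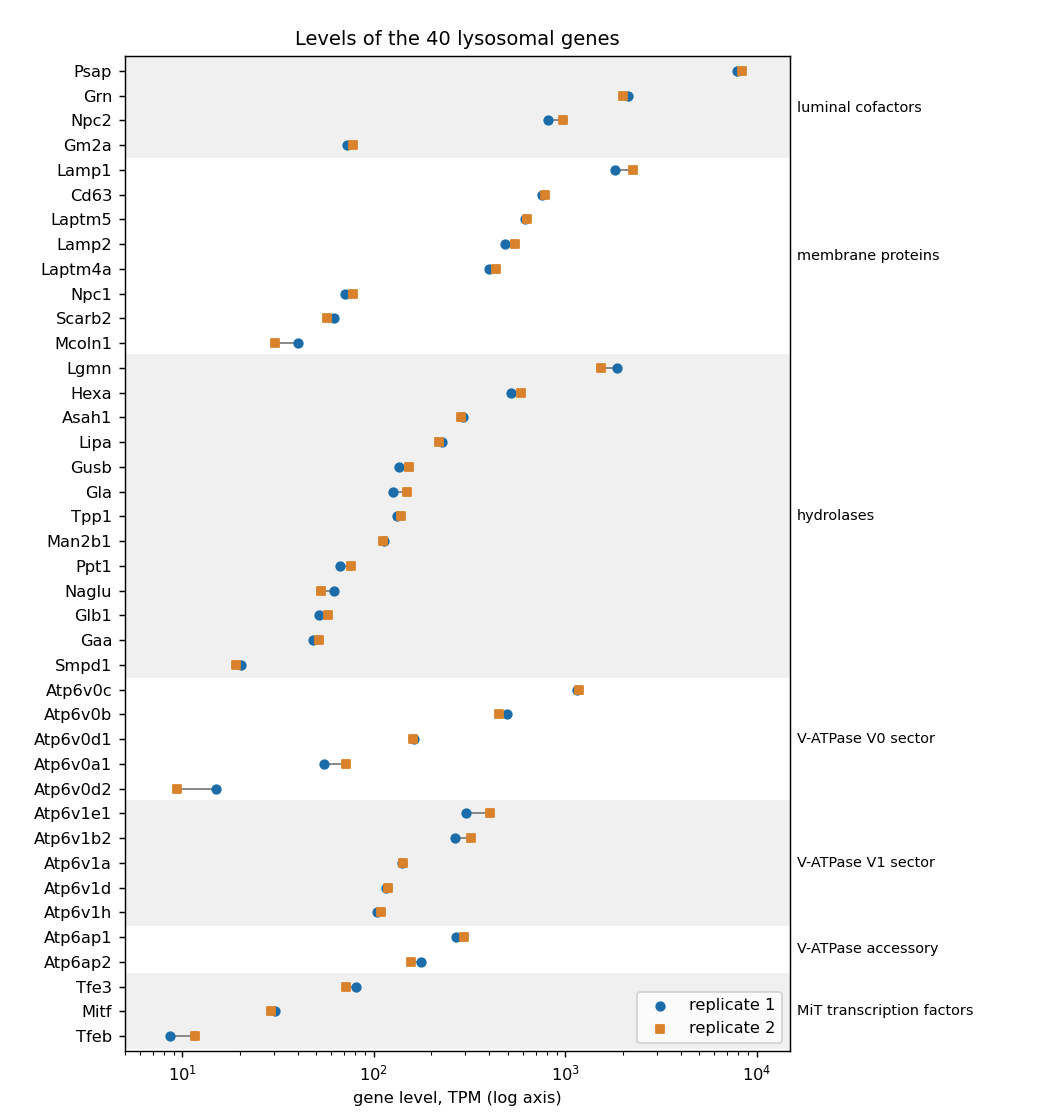
Level of each of the 40 lysosomal genes in TPM on a log axis, by role, with replicate 1 as circles and replicate 2 as squares. Psap lies at 7878 and 8352 TPM, and Tfeb and Atp6v0d2 are the lowest, near 10 TPM.

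The luminal cofactors were the most abundant of the groups, with a median of 1478 TPM over 4 genes. Psap (chromosome 10, 60277627 to 60302597, mm10) encodes prosaposin, the precursor of the saposins that present sphingolipids to their hydrolases. It had 7878 TPM in replicate 1, and in replicate 2 it had 8352 TPM, a mean of 8115 ± 335 TPM and rank 11 of all genes. Psap alone held 35.5% and 36.0% of the summed level of the 40 genes. Grn (chromosome 11, 102430315 to 102437048), whose product progranulin is cut into granulins in the lysosome, had 2134 and 1991 TPM, or 2062 ± 102 TPM. Npc2, the soluble carrier that binds cholesterol released in the lumen, had 817 and 969 TPM, or 893 ± 107 TPM. The libraries lay closer together for Psap and Grn than for Npc2, which was higher in replicate 2 with a log2 count ratio of -0.24 (-0.25 to -0.22). Gm2a, the activator that hands the ganglioside GM2 to hexosaminidase, was the exception among the cofactors with 72.7 and 77.7 TPM.

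The 8 membrane proteins had a median of 466 TPM, all 8 were above 10 TPM in both libraries, and 5 were above 100. Lamp1 (chromosome 8, 13159161 to 13175338), a main glycoprotein of the membrane, had 1813 TPM in replicate 1 and 2258 TPM in replicate 2, or 2035 ± 315 TPM. Its relative Lamp2 (chromosome X, 38401357 to 38456454) had 483 and 548 TPM. Lamp1 thus exceeded Lamp2 by 1.97 ± 0.10 on the scale of log2(TPM + 1), with ratios of 3.76 and 4.12, a distance far above the spread between the libraries. The range of Lamp1, 1813 to 2258 TPM, contains the mean of Grn, so the order of those genes was not resolved.

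Cd63, a tetraspanin of late endosomes and lysosomes, followed with 760 and 782 TPM. Laptm5, a lysosomal membrane protein of blood cells, had 615 and 629 TPM, and its widely expressed relative Laptm4a had 398 and 436 TPM. Laptm5 was the higher of this pair in both libraries, by 0.58 ± 0.07 on the log2(TPM + 1) scale. The lower end of the group was formed by transporters and a sorting receptor. Npc1, the membrane transporter that takes cholesterol from the Npc2 protein, had 70.7 and 78.1 TPM. Npc2 exceeded it by 3.56 ± 0.07 on the log2(TPM + 1) scale, with ratios of 11.6 and 12.4. The Npc1 level in this comparison includes a retained-intron transcript, and the coding transcript Npc1-201 had 36.5 and 39.4 TPM. Scarb2, which carries glucocerebrosidase to the lysosome, had 61.8 and 57.0 TPM. Mcoln1, the calcium channel TRPML1, was the lowest membrane gene with 40.4 and 30.4 TPM. Its relative Mcoln2, which is not one of the 40, exceeded Mcoln1 by 1.63 ± 0.54 on that scale, with ratios of 2.41 and 4.14, so that the size of this difference depended on the library while its direction did not.

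The 13 hydrolases had a median of 135 TPM and a range of 19.7 to 1698 TPM in their means. Lgmn (chromosome 12, 102394084 to 102439813), legumain, an asparaginyl endopeptidase that also activates cathepsins, was far above the others with 1859 and 1538 TPM, or 1698 ± 227 TPM. Hexa, the alpha subunit of hexosaminidase, had 521 and 584 TPM. Asah1, acid ceramidase, had 293 and 284 TPM, and Lipa, the acid lipase that frees cholesterol from its esters, had 226 and 220 TPM. The libraries differed by less for these last enzymes than the enzymes differed from one another.

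A block of 4 glycosidases and proteases came next. These were Gusb, beta-glucuronidase, at 144 ± 11.4 TPM, Gla, alpha-galactosidase A, at 138 ± 15.9 TPM, Tpp1, which takes tripeptides off protein ends, at 135 ± 4.31 TPM, and Man2b1, an alpha-mannosidase, at 112 ± 0.424 TPM. The first 3 of these did not differ beyond their spread. Ppt1, which removes palmitate from proteins, stood at 71.1 ± 6.65 TPM. Naglu, an enzyme of heparan sulphate breakdown, stood at 57.1 ± 6.31 TPM, Glb1, beta-galactosidase, at 54.7 ± 3.90 TPM, and Gaa, which digests glycogen, at 49.9 ± 2.92 TPM. Naglu and Glb1 overlapped in their ranges. Smpd1, acid sphingomyelinase, was the lowest hydrolase with 20.2 and 19.1 TPM.

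Enzymes of the same pathway stood at unequal levels. Asah1, which splits ceramide, exceeded Smpd1, which makes ceramide from sphingomyelin, by 3.81 ± 0.02 on the log2(TPM + 1) scale, with ratios of 14.5 and 14.8. Hexa exceeded its cofactor gene Gm2a by 2.86 ± 0.05, with ratios of 7.17 and 7.51. In both of these pairs the libraries gave nearly the same difference by the first quantification. By the second, Asah1 had 314 and 385 TPM and Smpd1 18.7 and 17.6 TPM, so their difference was larger in replicate 2. TPM compares transcript levels and gives no measure of protein or enzyme activity.

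The V-ATPase genes among the 40 had a median of 164 TPM over 12 genes, against 136 TPM over the other 28. In the V0 sector Atp6v0c, the c subunit that forms most of the proton-carrying ring (chromosome 17, 24163866 to 24169702), had 1152 and 1183 TPM, or 1168 ± 21.9 TPM. The ring holds several copies of this subunit. Atp6v0b, its relative subunit c″, had 495 and 449 TPM. Atp6v0d1, which joins the ring to the central stalk, had 163 and 161 TPM. Atp6v0a1, an isoform of the subunit that forms the proton path, had 54.9 and 71.2 TPM.

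Atp6v0d2, an isoform of subunit d known from osteoclasts and certain macrophages, was the lowest V-ATPase gene of the 40 with 14.9 TPM in replicate 1 and 9.39 TPM in replicate 2, or 12.2 ± 3.90 TPM. It lay below Atp6v0d1 in both libraries (difference in log2(TPM + 1) of -3.67 ± 0.43), and reached 0.0915 and 0.0582 of the level of Atp6v0d1. Markers of osteoclasts are given beside it because osteoclasts derive from the same precursors. Their summed level over 8 genes was 68.0 and 52.1 TPM, of which Acp5, itself a lysosomal phosphatase, made 59.6 and 41.0 TPM, while Ctsk stood at 1.13 and 1.81 TPM and Calcr at 0. Their part in the Atp6v0d2 level was not tested.

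In the V1 sector the 5 genes had a median of 142 TPM and all 5 passed 100 TPM. Atp6v1e1, a peripheral stalk subunit, was the highest with 303 TPM in replicate 1 and 402 TPM in replicate 2. Atp6v1b2, the nucleotide-binding B subunit, had 266 and 321 TPM. Both were higher in replicate 2. Atp6v1a, the catalytic A subunit, had 141 and 142 TPM, Atp6v1d, the rotor subunit, 116 and 118 TPM, and Atp6v1h, a regulatory subunit, 104 and 109 TPM. These last 3 kept their order in both libraries. The median V0 gene, Atp6v0d1, exceeded the median V1 gene, Atp6v1a, by 0.19 ± 0.01 on the log2(TPM + 1) scale. That spread is of a single gene pair, while the means of the V0 genes ran from 12.2 to 1168 TPM. The accessory genes Atp6ap1 and Atp6ap2, whose products help to assemble the pump, had 283 ± 19.2 and 167 ± 14.1 TPM. Atp6ap2 was the lower of these in both libraries (difference in log2(TPM + 1) of -0.76 ± 0.22).

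The 14 other V-ATPase genes encode the remaining subunits and isoforms. Of these 7 were at 10 TPM or more in both libraries, 6 at 100 or more, and 6 below 1 TPM in both. Tcirg1, which encodes the a3 isoform of lysosomes and osteoclasts, had 521 and 566 TPM and was the most abundant a subunit. It exceeded Atp6v0a1 by 3.10 ± 0.18 on the log2(TPM + 1) scale, with ratios of 9.49 and 7.96. Atp6v1f had 385 and 323 TPM, Atp6v0e 304 and 296 TPM, Atp6v1g1 272 and 264 TPM, Rnasek 284 and 205 TPM, and Atp6v1c1 167 and 169 TPM. Between the extremes lay the a2 isoform Atp6v0a2, at 21.9 and 24.4 TPM, and Atp6v1g2, at 4.13 and 3.33 TPM. Among the lowest were isoforms known from kidney and other specialised tissues: Atp6v0a4, Atp6v1b1 and Atp6v1g3 had 0 counts in both libraries, which allows up to 0.0594 and 0.0647 CPM (counts scaled to the library total). Atp6v0e2, Atp6v1c2 and Atp6v1e2 were at or below 0.05 TPM. By the first quantification every subunit of both sectors had at least 1 isoform at 100 TPM or more in both libraries. By the second, Atp6v1h, the only gene of subunit H, had 98.4 TPM in replicate 1. The Atp6v1d level includes a retained-intron transcript, and its coding transcript Atp6v1d-201 had 58.5 and 49.9 TPM.

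**Figure D3:**
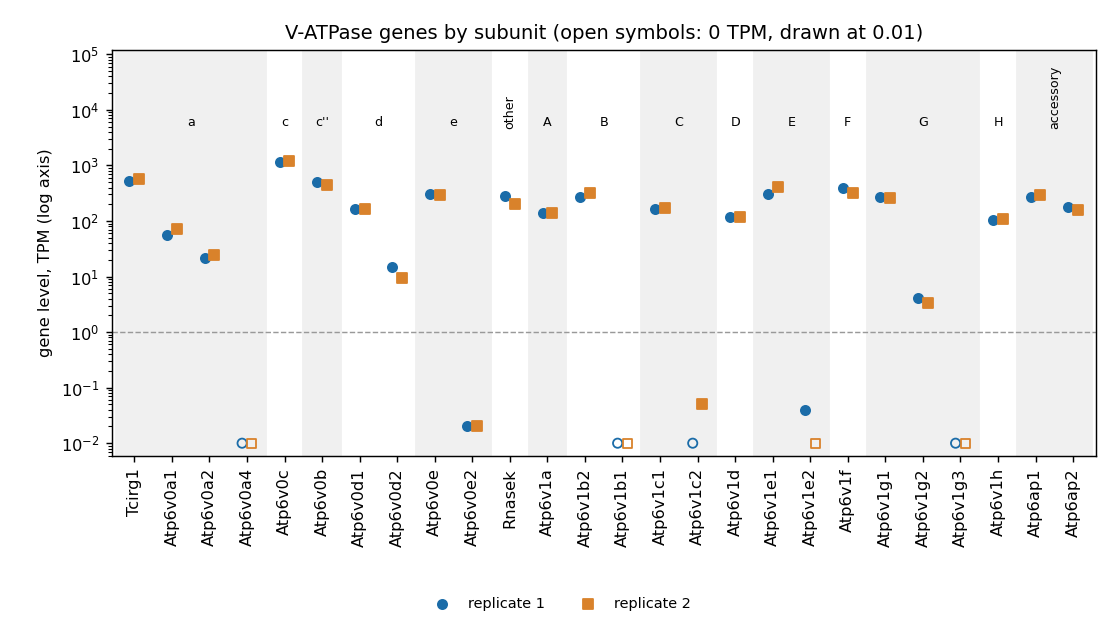
Levels of the 12 V-ATPase genes among the 40 and of the 14 other V-ATPase genes, in TPM on a log axis, grouped by subunit with replicate 1 as circles and replicate 2 as squares. In subunits a, d, e, B, C, E and G 1 isoform stands well above the others, and 3 isoforms are at 0 in both libraries (open symbols, drawn at 0.01).

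The 3 MiT transcription factors had a median of 29.8 TPM, the lowest of the role groups. Tfe3 had 80.4 and 71.2 TPM, Mitf 30.6 and 29.1 TPM, and Tfeb (chromosome 17, 47737030 to 47792419) 8.62 and 11.7 TPM. Tfeb was the lowest of all 40 genes by its mean, 10.1 ± 2.16 TPM, which overlapped Atp6v0d2. Tfe3 exceeded Tfeb by 2.80 ± 0.40 and Mitf exceeded Tfeb by 1.48 ± 0.33 on the log2(TPM + 1) scale, in the same order in both libraries. The Tfe3 level includes Tfe3-214, an annotated fragment of 408 bases, at 20.8 and 19.1 TPM. Tfec, the remaining member of the family, which is known from macrophages, stood at 14.4 and 16.4 TPM, 0.57 ± 0.16 above Tfeb on that scale. Mitf is also the melanocyte factor, and 5 melanocyte markers summed to 0.33 and 1.03 TPM, with Tyr, Tyrp1 and Dct at 0. These factors are controlled largely by their location in the cell, which RNA levels do not show.

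The distance between the libraries was measured as the log2 ratio of replicate 1 over replicate 2 of the rounded expected counts, scaled with the trimmed mean of M values (TMM). A 95% interval was taken from the exact binomial distribution (Clopper-Pearson), which covers counting error only. With 1 library on each side no test was made. None of the 40 genes lay 2-fold or more apart (0 of 40), against 4.21% of the 12543 genes that passed the filter on low counts. The lysosomal genes were well covered, with 560 to 680650 counts in replicate 1, and low counts widen such ratios. Among the 6983 genes with at least as many counts as the lowest of the 40, 0.917% lay 2-fold apart. The median absolute log2 ratio was 0.13 in the lysosomal genes, 0.16 in those 6983 genes and 0.21 in all genes. The 6983 genes share only this lower limit of counts with the 40, and genes matched to them in depth were not compared.

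The 40 ratios ran from -0.40 to 0.68, and 31 of them were within 0.25 of 0. The median absolute ratio over all genes that passed the filter, 0.21, was also within 0.25. Of the 40 genes 18 were higher in replicate 1 and 22 in replicate 2, and their median ratio was -0.03. The farthest toward replicate 1 was Atp6v0d2 at 0.68 (0.55 to 0.81), with 1231 counts in replicate 1 and 709 in replicate 2. Next came Mcoln1 at 0.36 (0.27 to 0.45) and Lgmn at 0.29 (0.28 to 0.31). The farthest toward replicate 2 were Atp6v1e1 at -0.40 (-0.43 to -0.36), Tfeb at -0.37 (-0.53 to -0.20) and Lamp1 at -0.30 (-0.32 to -0.29). In 36 of the 40 genes the counting interval did not contain 0, the exceptions being Smpd1, Tpp1, Atp6v0d1 and Atp6v1a. The same was so in 57.8% of all genes that passed the filter. Among the 6983 genes with at least as many counts as the lowest of the 40, which are not matched in depth, it was so in 72.2%.

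No group of genes moved as a block. The median ratio was -0.07 in the 8 membrane proteins, 0.01 in the 13 hydrolases, -0.07 in the 4 cofactors, 0.02 in the 5 V0 genes and -0.06 in the 5 V1 genes. Within the V-ATPase, Atp6v0d2 was higher in replicate 1 while Atp6v0a1, at -0.29 (-0.34 to -0.24), was higher in replicate 2. The MiT factors were split as well, with Tfe3 at 0.23 (0.18 to 0.29) and Mitf at 0.15 (0.09 to 0.21), against Tfeb at -0.37. All of these lay inside the central 95% of all genes, which ran from -0.97 to 0.91.

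**Figure D4:**
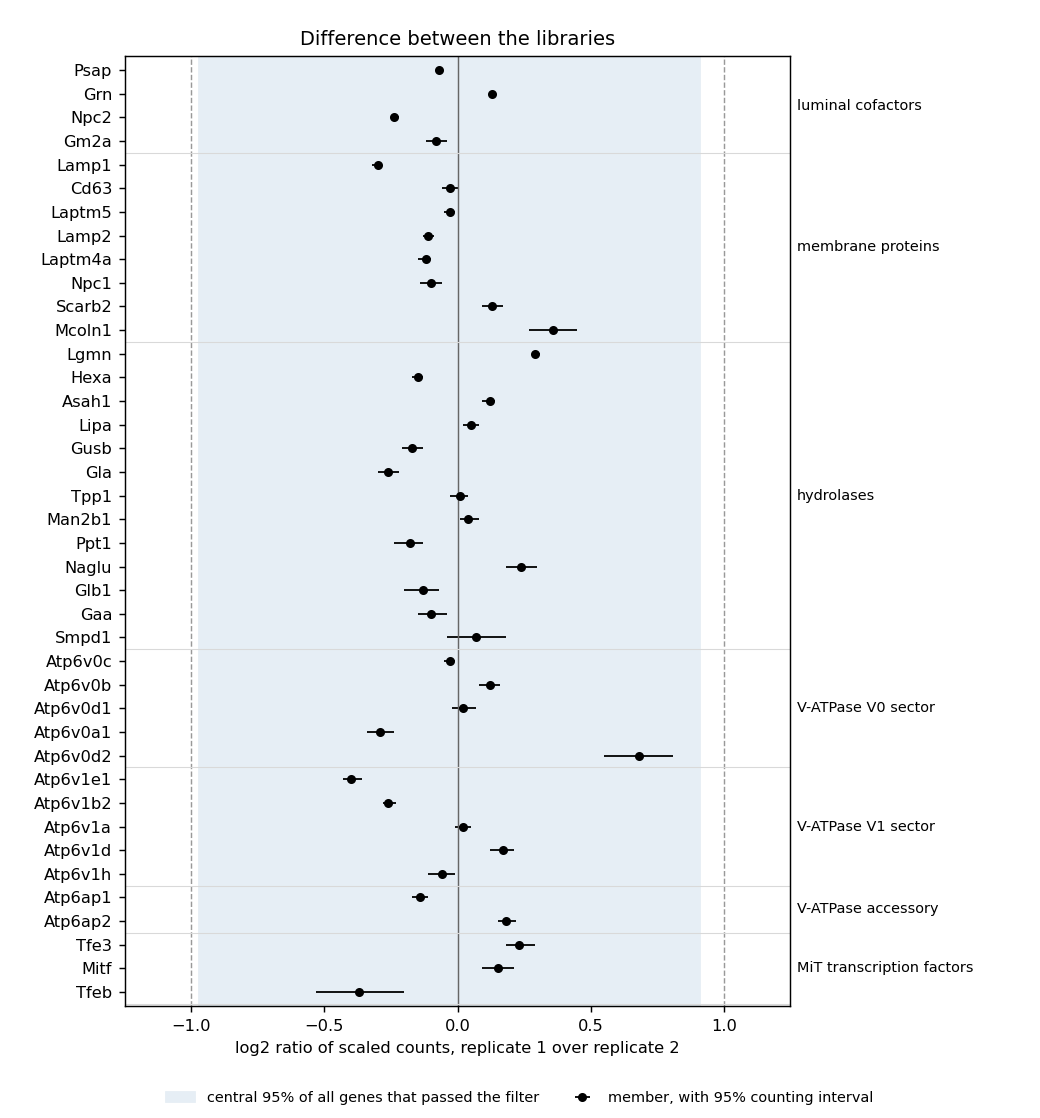
Log2 ratio of scaled counts, replicate 1 over replicate 2, for each of the 40 lysosomal genes by role, with bars for the 95% counting interval. The shaded band is the central 95% of all genes that passed the filter, dashed lines mark a 2-fold difference, and Atp6v0d2 at 0.68 is the farthest of the 40.

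The deposited transcript tables divide each gene among its annotated transcripts, 230 for the 40 genes. A transcript's share is its TPM as a percent of the summed TPM of its gene. In 34 of the 40 genes the leading transcript held 60% or more in both libraries, against 67.6% of the 6012 protein-coding genes compared at 10 TPM or more. In 24 it held 90% or more, against 36.2%. The same transcript led in both libraries and in both deposited quantifications in 36 genes, against 86.2%. The 4 exceptions were Gaa, Asah1, Tfe3 and Atp6v1d.

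Lamp2 was divided between coding transcripts that end in different last exons. The last exon sets the transmembrane and cytosolic end of the protein, which decides which LAMP-2 isoform is made. The first 1109 coding bases are common to Lamp2-201, Lamp2-202 and Lamp2-203, and the coding parts of their last exons are 51.8% to 54.0% identical over 139 bases. Their last 45 coding bases with the stop codon (mm10, chromosome X, minus strand) are shown because they tell the isoforms apart. Capitals mark the 2 of 15 codons that all 3 share, ATT and TAT, and TAT encodes the tyrosine of the sorting signal for lysosomes.
Lamp2-201, chrX:38405432-38405476: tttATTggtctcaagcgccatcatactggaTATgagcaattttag
Lamp2-202, chrX:38421712-38421756: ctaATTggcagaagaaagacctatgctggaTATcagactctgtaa
Lamp2-203, chrX:38402139-38402183: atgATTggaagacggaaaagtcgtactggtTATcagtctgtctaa

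Lamp2-201, the ending of the isoform that serves as receptor in chaperone-mediated autophagy, held 50.5% and 55.7% of the Lamp2 TPM. Lamp2-202 held 48.9% and 43.7%. Lamp2-203 held 0.508% and 0.530%. The second quantification gave 52.8% and 57.3% for Lamp2-201, 46.5% and 42.1% for Lamp2-202, and 0.515% and 0.543% for Lamp2-203. Both methods placed Lamp2-201 above Lamp2-202 in TPM in both libraries and gave under 1% to Lamp2-203. By counts, which are not scaled for length, the longer Lamp2-202 held 67.9% and 63.1% and Lamp2-201 31.5% and 36.3%.

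The transcription factor genes used several starts or endings. Tfeb-202 held 69.1% and 56.0% of the Tfeb TPM and Tfeb-212, which starts 49.1 kb downstream, 24.9% and 40.3%. The second quantification gave Tfeb-212 12.1% in replicate 2 and almost nothing in replicate 1, so the use of that start rests on the method. In Mitf, Mitf-202 held 89.9% and 85.0%, and Mitf-208, whose start lies 185 kb downstream, held 8.57% and 11.8%. By counts of the first quantification Mitf-208 held 1.63% and 2.36%. For Mitf-208 the second quantification gave 3.04% and 8.98%, with 8.22% and 5.21% on Mitf-207. Tfe3 was spread over several coding transcripts. Tfe3-205 held 29.3% and 29.5%, Tfe3-214 25.9% and 26.8%, Tfe3-204 22.3% and 25.1%, and Tfe3-201 12.8% and 9.02%. Tfe3-214 is an annotated fragment of 408 bases that held only 1.95% and 2.14% of the Tfe3 counts. Tfe3-206 held 4.9% and 7.21% of the TPM but 7.16% and 10.9% of the counts. The second quantification placed Tfe3-204 first with 30.8% and 35.0%.

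In 2 genes, Atp6v1d and Npc1, transcripts annotated as other than protein-coding held 20% or more in both libraries, against 17.3% of the protein-coding genes. Transcripts annotated for nonsense-mediated decay, which can hold coding bases, are counted among them. The second quantification gave 4 such genes, against 17.7%, with Asah1 and Tpp1 added. In Asah1 the sum includes Asah1-202, annotated for nonsense-mediated decay, at 11.8% and 31.5%. In Tpp1 these transcripts held 19.6% and 22.2% by the first and 25.5% and 22.4% by the second. Atp6v1d-202, a retained-intron transcript of 775 bases at the 3′ end of the gene, held 48.0% and 57.3% of the Atp6v1d TPM, but 12.4% and 17.0% of its counts. The coding Atp6v1d-201, of 3667 bases, held 50.4% and 42.2% of the TPM and 87.3% and 82.9% of the counts. The length scaling of TPM thus raised the short transcript. It also bears on the gene level: Atp6v1d had 8279 counts in replicate 1 and 6798 in replicate 2, a log2 ratio of 0.17 (0.12 to 0.21), while its TPM of 116 and 118 did not show that difference. In Npc1, the coding Npc1-201 held 51.7% and 50.4% of the TPM, and the retained-intron transcript Npc1-206 held 48.3% and 47.6%. By counts Npc1-206 held 26.9% and 27.1%. The second quantification gave Npc1-206 27.4% and 26.7% of the TPM.

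Asah1 was the gene on which the quantifications differed most in transcript use. Asah1-201, the coding transcript, held 94.4% and 84.3% in the first quantification, against 70.3% and 30.4% in the second. The retained-intron Asah1-203 held 2.73% and 10.2% in the first and 17.6% and 37.6% in the second. Both methods placed more of Asah1 outside its coding transcript in replicate 2. Gaa and Lgmn were each divided mainly between transcripts with the same coding exons. Gaa-201 held 56.0% and 60.7% and Gaa-203 43.1% and 38.3%. Lgmn-201 held 81.1% and 73.4% and Lgmn-202 18.7% and 26.4%. The second quantification gave Lgmn-202 less, 6.37% and 13.0%, and in replicate 1 placed Gaa-203 first, with 51.9% against 40.9% for Gaa-201. Psap-203, which starts 6.83 kb downstream of Psap-202 and differs from it in coding exons, held 3.01% in replicate 1 and 10.5% in replicate 2.

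**Figure D5:**
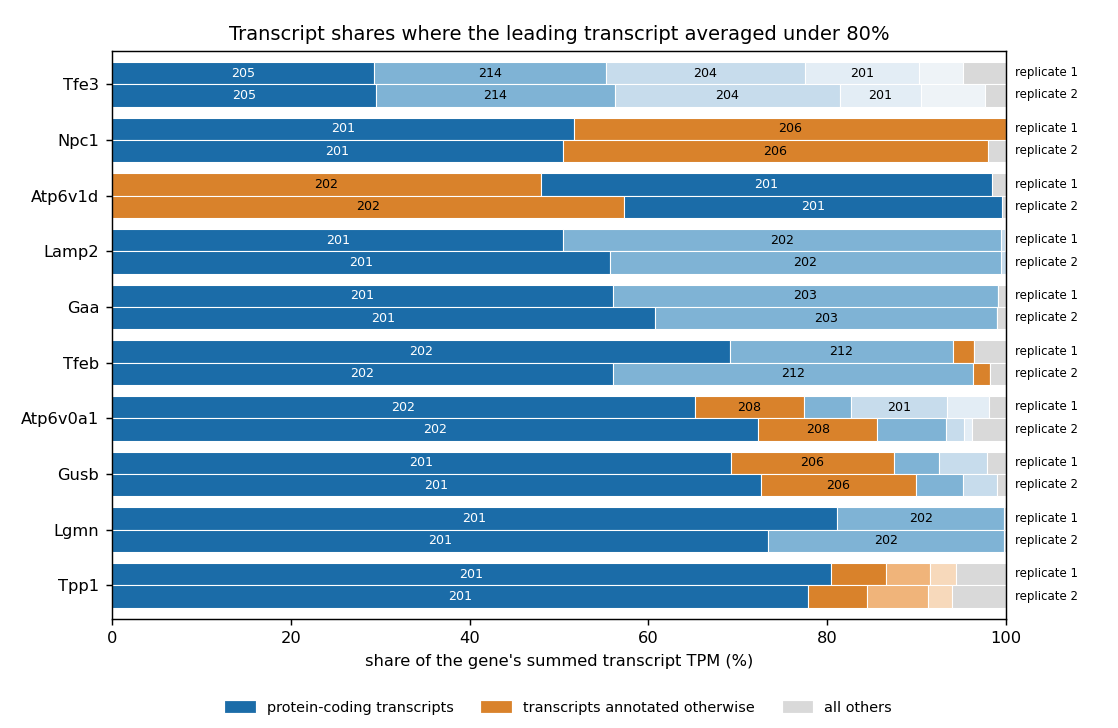
Share of each gene's summed transcript TPM on its transcripts, in percent, for the 10 lysosomal genes whose leading transcript averaged under 80%, with a bar for each replicate. Blue shades are protein-coding transcripts and orange shades transcripts annotated otherwise, which hold about as much of Npc1 and Atp6v1d as the coding ones do.

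The gene levels themselves differed little between the quantifications. None of the 40 genes lay 2-fold or more apart (0 of 40), against 13.4% of the 12268 genes at 1 TPM or more in either. The log2 ratios of the first over the second ran from -0.28 in Asah1 to 0.30 in Npc1. The expected counts of Lamp1, Cd63, Npc1, Glb1, Hexa and Atp6v0c were not whole in at least 1 library (off by more than 0.005), which can occur where reads are divided among genes, and these levels are less certain. Annotated overlaps with other genes at 1 TPM or more were found for 6 of the genes. The 3′ end of Ppt1 overlaps Cap1 on the other strand over 129 bases, and Cap1 stood at 403 and 420 TPM. Npc1 overlaps Rmc1, at 18.3 and 17.4 TPM, over 967 bases. Glb1 overlaps Tmppe, at 4.93 and 5.39 TPM, on the same strand over 6172 bases. Lamp1 overlaps Grtp1, at 1.78 and 1.86 TPM, over 3317 bases, Hexa overlaps Tmem202, at 5.03 and 6.98 TPM, over 308 bases, and Atp6v1b2 overlaps Slc18a1, at 1.19 and 4.71 TPM, over 590 bases. These lengths are of gene spans and can include introns. The overlaps of Lamp1 and Glb1 are longer than their leading transcripts, of 2229 and 2396 bases. The sources used here do not say whether the counting used strand, which could not separate Glb1 from Tmppe in any case. How reads in the shared stretches were assigned is therefore not shown.

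Other genes of the pathway were read from lists of known function. Of 28 other lysosomal enzymes 23 reached 10 TPM in both libraries, and their median level was 50.7 TPM. Ctsa, which protects neuraminidase and beta-galactosidase, was the highest at 866 ± 96.4 TPM, Acp2, an acid phosphatase, stood at 469 ± 23.7 TPM, and the lowest were Sgsh at 6.58 ± 0.226 TPM and Hyal1 at 3.71 ± 0.898 TPM. Of 20 other membrane proteins 11 reached 10 TPM. Cd68, a macrophage relative of the LAMP proteins, reached 2135 ± 83.5 TPM, above Lamp1 by less than the spread of Lamp1. Slc11a1, the divalent metal transporter of phagosomes, had 458 ± 126 TPM and Clcn7, the chloride-proton exchanger, 240 ± 44.7 TPM. Abcb9 stood at 0.66 ± 0.24 TPM and Lamp3, the LAMP of mature dendritic cells, had 0 counts in both libraries.

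Genes that deliver hydrolases to lysosomes were present in 10 of 11 cases at 10 TPM or more. M6pr, a mannose 6-phosphate receptor, led them at 377 ± 16.7 TPM, followed by Ap3b1 at 83.6 ± 3.08 TPM and Sumf1, which activates sulphatases, at 76.6 ± 6.89 TPM, while Gga2 stood at 14.9 ± 1.43 TPM and Sort1 at 1.16 ± 0.233 TPM. Of 15 genes of nutrient signalling at the lysosome 12 reached 10 TPM. The Ragulator subunits Lamtor1 and Lamtor5 had 217 ± 21 and 199 ± 21.8 TPM, and the Rag GTPase Rragc had 142 ± 21.2 TPM, whereas Rragd had 4.50 ± 0.332 TPM and Rragb 0.125 ± 0.0778 TPM.

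The gene table of replicate 1 summed to 50503159 expected counts and that of replicate 2 to 46342331. Counts of the libraries differed beyond sampling noise, with a chi-square of 69.8 per degree of freedom over 14305 genes. In both libraries each of 10 macrophage markers was at 10 TPM or more, and their summed level was 20497 and 20768 TPM, of which Lyz2 made 10292 and 11210 TPM. Single markers differed more and in opposite directions, with Cd14 at 348 and 691 TPM and C1qa at 1017 and 696 TPM. Markers of neutrophils summed to 66.9 TPM in replicate 1 and 4.45 TPM in replicate 2, led by S100a9 at 37.9 and 2.23 TPM, with Ly6g and Retnlg at 0. Their part in the ratios between the libraries was not tested. Markers of dendritic cells summed to 5.9 and 3.53 TPM, and those of fibroblasts to 1.05 and 1.09 TPM. Fewer cells of a type and less RNA per cell cannot be told apart in such bulk libraries.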

How the data were processed

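RNA-seq was measured in 2 libraries of 1 group, given as biological replicates 1 and 2 by the labels, and p-values were computed for no result. The authors deposited, per the file headers, gene and transcript tables with expected counts and TPM, and a second transcript table with estimated counts and TPM. The reads were placed on mm10, per the labels. For the quantifiers, a name, a version and the use of strand were not given in the sources used here. Identifiers are those of GENCODE M21. Rows that name no mouse gene (spike-ins and numbered entries) held 0.0631% and 0.0676% of the counts and were left out.

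Levels are the deposited gene TPM, with differences between genes on the log2(TPM + 1) scale. Expected counts were rounded and compared between the libraries with edgeR 4.0.16 in R 4.3.3 (filterByExpr, TMM, prior count of 0.5), with DESeq2 1.42.0 size factors as an alternative, and the calculation was tested on simulated data. Intervals and limits for 0 counts (3 counts of the total) cover counting error only. Every one of the 40 genes is named with its value, and of each other list the highest 3 and lowest 2, except for results that are not reported here. The genes, lists and pairs were chosen with earlier results of these data known. Promoter sequences are those of RefSeq (GRCm38.p6), transcript sequences those of GENCODE. A planned comparison of protein sequences was not made.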

Additional observations from a re-analysis of the deposited data

How the results depend on the processing

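Each difference between paired genes kept its direction under the alternatives run. Between the libraries none of the 40 genes was 2-fold apart, so no sign of such a difference could reverse among them. The median of the 40 genes was 153 TPM, against 143, when TPM was rescaled to protein-coding genes. With the second quantification, differences on the log2(TPM + 1) scale became 3.79 for Npc2 minus Npc1, 2.79 for Hexa minus Gm2a, 4.19 for Asah1 minus Smpd1, 0.65 for Laptm5 minus Laptm4a and 0.17 for the median V0 minus the median V1 gene, and a pseudocount of 0.1 TPM gave 3.87 for Asah1 minus Smpd1. Genes 2-fold or more apart between the libraries numbered 528, against 5481 with no filter, where low counts enter, and 196 where a mean of 100 counts was asked for, which removes them. Of these, 239 were higher in replicate 1 and 289 in replicate 2, a split that became 412 and 314 with the second quantification and 3286 and 2195 with no filter. None of the 40 genes was 2-fold apart under any of these settings. The ratio of Tpp1, near 0, changed sign with library totals, with no filter and with the second quantification, and that of Atp6v1a with the second quantification. Genes 2-fold apart between quantifications fell to 296, against 1643, at a minimum of 10 TPM. The palindrome of 8 bases was in 2 genes, against 4, when windows ran from 100 bases before to 50 after the start, where 0.847% of all genes held it. Leaving out a replicate says nothing of the stability of the levels, since with 2 libraries the mean always moves by less than 1 SD. No paired analysis was possible because there was only 1 group. Leaving out a library could not be done for the ratios between libraries, which need both, and the promoter motifs use no library. Depth limits the ratios of the lowest genes most: the counting interval of Tfeb ran from -0.53 to -0.20.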

Other observations

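Some of the 40 genes are neighbours in the genome. Atp6v0a1 and Naglu lie 6.29 kb apart on chromosome 11, and their ratios of replicate 1 over replicate 2 had opposite signs, -0.29 (-0.34 to -0.24) for Atp6v0a1 and 0.24 (0.18 to 0.30) for Naglu on the log2 scale. Smpd1 and Tpp1 lie 186 kb apart on chromosome 7, and neither had a counting interval that left out 0. Gusb-206, a transcript annotated for nonsense-mediated decay, held 18.3% and 17.3% of the Gusb TPM in the first quantification and 4.59% and 3.31% in the second.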
